A study of Mus musculus with 2 samples.

Results

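Foxo factors and PI3K-Akt signalling were followed through 8 mouse genes, the transcription factor genes Foxo1, Foxo3 and Foxo4, the kinase genes Akt1, Akt2 and Sgk1, and the PI3K genes Pik3ca and Pik3r1, in 2 epithelial cell lines. The members were taken by gene symbol: every probe set, a group of short probes for a transcript, whose platform annotation names 1 of these symbols alone was kept. That gave 27 of 34945 probe sets with a single gene, and 8 of 18193 genes. The lines are called Mlesico and Mle29c in the labels, were both grown in DMEM with fetal serum, and were each measured on 1 expression array of biotin-labelled cRNA made from total RNA. Their source animals, vectors, clones and passage are not given in the sources used here, nor is it stated whether Mle29c cells hold more or less miR-29c than Mlesico cells. By its title, the series asks what miR-29c does to pulmonary fibrosis through the survival and replacement of epithelial cells.

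PI3K, built from a catalytic subunit such as the product of Pik3ca and a regulatory subunit such as that of Pik3r1, makes a membrane lipid after growth factor receptors are engaged, and this lipid recruits the Akt kinases. Akt and its relative Sgk1 phosphorylate the Foxo factors, which then leave the nucleus, so that Foxo target genes of cell cycle arrest, apoptosis and stress defence are less transcribed. Much of this control acts on proteins, and an array of RNA does not read it. Foxo3, Akt2 and Pik3r1 are among the genes reported as targets of the miR-29 family, which pairs with messenger RNA through its seed, bases 2 to 8 of the mature strand.

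The 3 mature miR-29 strands are shown because the seed is what the family has in common, with the seed in capitals and the other bases in lower case, 5′ to 3′, from RefSeq (GRCm38.p6).
mmu-miR-29c-3p: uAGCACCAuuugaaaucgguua
mmu-miR-29a-3p: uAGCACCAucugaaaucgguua
mmu-miR-29b-3p: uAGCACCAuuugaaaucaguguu
The miR-29c strand lies at chr1:195037600-195037621 on the plus strand and that of miR-29a at chr6:31062673-31062694 on the minus strand. Counted from the 5′ end, miR-29a and miR-29c differ by C10U alone, outside the seed. Among 1679 mature mouse miRNAs in the table, these 3 share the seed AGCACCA. Transcript sequences were not used here, so seed matches in the members were not counted.

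All values are log2 ratios, the Mle29c value minus the Mlesico value, so that a ratio of 1 is a 2-fold higher signal in Mle29c. In the table as the authors deposited it, the mean of the pair had been subtracted from each probe set. A pair of values is therefore a mirror image, such as -1.13 in Mlesico and 1.13 in Mle29c for the Foxo1 probe set 1416983_s_at, and the level of a transcript is gone. The last digits of a pair still bound that level, which was sorted into classes: high for a mean log2 level of 8 or more (a signal of 256), middle for 4 to 8, and low below that. Where the rounded pair does not sum to 0 the class is close to sure. Otherwise it is the highest class that the number allows, and on simulated data 54.3% of the high and 76.5% of the middle calls of that kind were right. A gene was called measured when it had a probe set of the high or middle class, and its value was the median over those. With 1 array per line there was no replicate, so nothing was tested, no p-value is given, and differences were counted by size at 2-fold. The only error at hand is technical: different measured probe sets of a gene had a pooled SD of 0.62 in log2 ratio over 6835 genes, which does not cover differences between cultures.

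Markers of epithelium and of other cells were both among the measured genes. Of 10 epithelial markers 9 were measured, among them the keratin gene Krt8 at 0.63 in 3 high-class probe sets, the lung epithelial regulator gene Nkx2-1 at 0.31 and the surfactant protein gene Sftpc at 1.66. Of these 9, 5 were above 0 and 4 below, the latter being Epcam at -0.52, Krt18 at -0.20, Cldn7 at -0.09 and Krt19 at -0.06. Of 8 fibroblast markers 7 were measured, with Col1a1 at -3.41 and Col3a1 at 1.55, as were 4 of 6 endothelial and 5 of 7 immune markers. Pdgfrb, Pecam1, Emcn, Ptprc and Cldn4 had low-class probe sets alone. Since levels were centred away, a measured marker is not shown to be present in both lines, the summed level of a marker list on each array cannot be given, and the part of other cells in the ratios below was not tested. Fewer cells of a type and less RNA per cell cannot be told apart in such samples.

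Foxo1 had the highest ratio of the 8 genes and Akt2 was next. Both were at least 2-fold higher in Mle29c, none of the 8 was 2-fold lower, and the remaining 6 lay within 2-fold. Over all 14772 measured genes, 8.46% were at least 2-fold higher and 7.26% at least 2-fold lower, or 15.7% either way, and the median was 0.01. At 1.5-fold the same pair was higher, against 16.7% of measured genes higher and 15.3% lower, and at 4-fold Foxo1 alone, against 2.68% and 2.32%. Of the 24 probe sets of these genes in the high or middle class, 5 were at least 2-fold higher and 1 lower, where all such probe sets gave 8.0% and 7.38% (15.4% either way). The other 3 were low, 2 of them higher, in a class where 29.4% were higher and 27.2% lower. With every class, 7 of 27 were higher and 1 lower, against 12.7% and 11.7% of all named probe sets, or 24.4% either way. In descending order the genes stood at 2.20 for Foxo1, 1.19 for Akt2, 0.54 for Pik3ca, 0.49 for Sgk1, 0.44 for Akt1, 0.38 for Foxo4, -0.08 for Pik3r1 and -0.08 for Foxo3. From Pik3ca down to Foxo3, each step between neighbours in this order is smaller than the SD of 0.62 between probe sets. The step from Akt2 to Pik3ca is close to that SD, and the one from Foxo1 to Akt2 is larger.

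**Figure D1:**
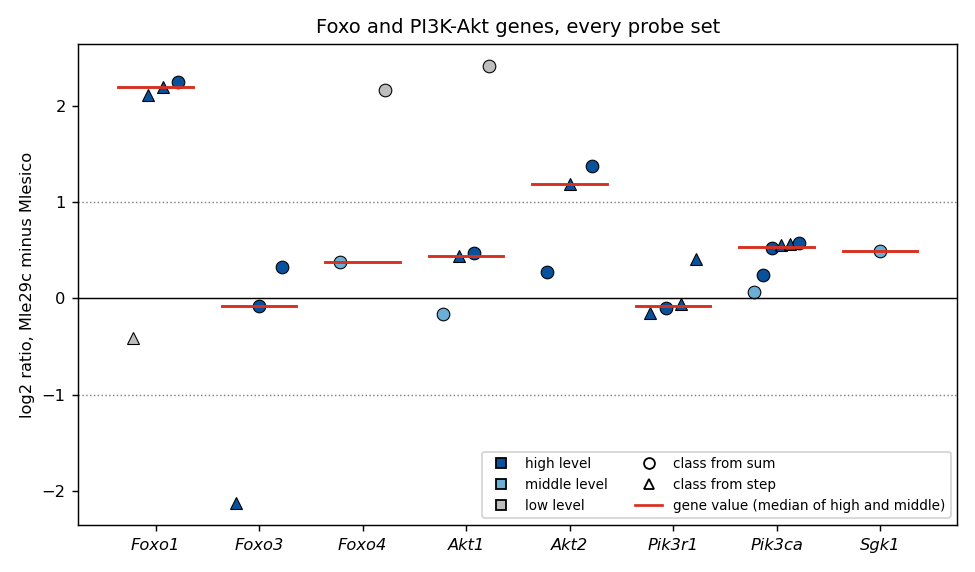
Log2 ratio (Mle29c minus Mlesico) of all 27 probe sets of the 8 genes, with the gene value as a red line, colour for the level class, circles for a class from the sum of the 2 values and triangles for a class from the rounding step; dotted lines mark 2-fold. The 3 high-class Foxo1 probe sets sit together between 2.11 and 2.25, while those of Foxo3 reach from -2.13 to 0.33.

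The Foxo factors bind the same core DNA motif, and their genes are paralogs on different chromosomes. Foxo1 (chromosome 3) stood at 2.20, a 4.60-fold higher signal in Mle29c. Its centred Mlesico values were -1.06, -1.10 and -1.13 in the 3 probe sets 1416981_at, 1416982_at and 1416983_s_at, against 1.06, 1.10 and 1.13 in Mle29c. These gave ratios of 2.11, 2.20 and 2.25, so the 3 lay close together and Mle29c was higher in each. Foxo1 stood above 97.8% of measured genes. They are annotated to 1 and the same GenBank record and are not independent readings of the gene. Their range was 0.14, and 5.89% of the 1765 genes with 3 measured probe sets had a narrower one. The level class of 1416983_s_at follows from the sum, which puts its Mlesico signal at 117 or more. Its suffix marks probes that also match other transcripts, and without it Foxo1 would be at 2.16. The classes of 1416981_at and 1416982_at come from the step, which gives no lower bound on their signal. The 4th Foxo1 probe set, 1456529_at, matches another record and differed, with 0.21 in Mlesico, -0.21 in Mle29c and a ratio of -0.41. Its mean level was below 4 and it was left out of the gene value, which would be 2.16 with it.

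Foxo3 (chromosome 10), which like Foxo1 can drive the BH3-only death genes, stood at -0.08, but its 3 probe sets disagreed. Probe set 1434831_a_at read 0.04 in Mlesico and -0.04 in Mle29c, and 1434832_at read -0.16 and 0.16, for ratios of -0.08 and 0.33. Both had a class from the sum, with the weaker array at a signal of 249 and 229 or more. The third, 1450236_at, read 1.06 in Mlesico and -1.06 in Mle29c, a ratio of -2.13 or a 4.37-fold lower signal in Mle29c. Of the 3 readings, 2 were thus near 0 and 1 was far below it. The probe sets near 0 share a GenBank record and the divergent one has its own, with a class from the step, which gives no lower bound on its signal. The Foxo3 range of 2.45 exceeded that of 94.7% of the genes with 3 measured probe sets. A further probe set in the middle class lists Foxo3 together with the predicted gene Gm38485 and was not used; it stood at -0.68.

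Foxo4 (chromosome X) had 1 measured probe set, 1456753_at, with -0.19 in Mlesico, 0.19 in Mle29c and a ratio of 0.38 in the middle class. The other, 1422149_at, stood at 2.17, with -1.08 and 1.08, but its weaker array, Mlesico, had a log2 level below 4. In that low class 56.6% of named probe sets differed by 2-fold or more either way. With it kept, Foxo4 would be at 1.27. Measured probe sets of Foxo1 did not overlap those of either paralog, and Foxo1 exceeded Foxo3 by 2.28 and Foxo4 by 1.82 in log2 ratio. Foxo4 and Foxo3 differed by 0.46, within the SD between probe sets. Foxo6 was not analysed here.

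**Figure D2:**
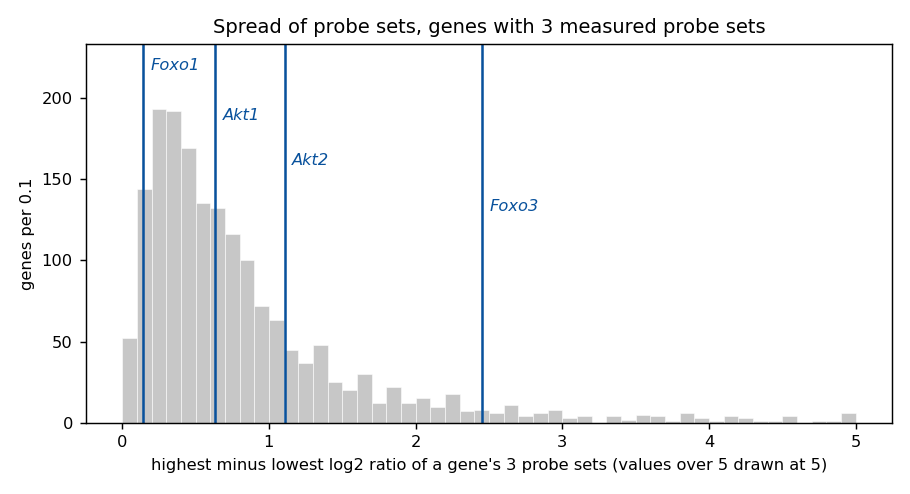
Number of genes (vertical axis, per 0.1 of range) by the range of log2 ratios over their probe sets, for all genes with 3 measured probe sets; blue lines mark Foxo1 at 0.14, Akt1 at 0.63, Akt2 at 1.11 and Foxo3 at 2.45. Foxo1 lies at the narrow end and Foxo3 in the right tail.

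The Akt kinases pass the PI3K signal to Foxo factors, to Gsk3 and to mTORC1. Akt2 (chromosome 7), the form best known for the response to insulin, stood at 1.19, 2.29-fold higher in Mle29c, from probe sets that were not of one size. 1421324_a_at read -0.60 in Mlesico and 0.60 in Mle29c, 1424480_s_at read -0.69 and 0.69, and 1455703_at read -0.14 and 0.14. The ratios were 1.19, 1.38 and 0.28, all in the high class and all above 0, with 2 of 3 past 2-fold. The Mlesico signal was at least 159 for 1424480_s_at and at least 233 for 1455703_at, and each of the 3 comes from its own GenBank record. The class of 1421324_a_at, whose ratio is the gene value, comes from the step, which gives no lower bound on its signal. The call of 2-fold was lost under other settings: the value was 0.95 as a mean over probe sets, 0.73 without 1424480_s_at, whose suffix marks probes that also match other transcripts, and 0.83 over probe sets classed by their sum.

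Akt1 (chromosome 12), the broadly expressed form tied to growth and survival, stood at 0.44. Its measured probe sets were 1416657_at, with -0.24 in Mlesico and 0.24 in Mle29c, 1425711_a_at, with -0.22 and 0.22, and 1440950_at, with 0.08 and -0.08. The ratios of 0.48, 0.44 and -0.16 lie on both sides of 0 and all within 2-fold. The class of 1425711_a_at, whose ratio is the gene value, comes from the step. Over probe sets classed by their sum, Akt1 was at 0.16. A 4th probe set, 1442759_at, stood at 2.42 in the low class. Akt2 exceeded Akt1 by 0.75 in log2 ratio, but the ranges of their measured probe sets overlapped, from 0.28 to 1.38 and from -0.16 to 0.48.

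Sgk1 (chromosome 10), a kinase induced by glucocorticoids and cell stress that acts on Foxo3 and on the epithelial sodium channel, had 1 probe set, 1416041_at. It read -0.25 in Mlesico and 0.25 in Mle29c, a ratio of 0.49 in the middle class with no second reading to set beside it. Its relatives were close: Sgk3 stood at 0.36 in 3 probe sets and Sgk2 at 0.19 in 1.

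The PI3K genes differed little between the lines. Pik3ca (chromosome 3), which encodes the p110 alpha catalytic subunit, had 6 measured probe sets, all above 0, with ratios from 0.06 to 0.57 and a median of 0.54. The 4 highest lay between 0.53 and 0.57, with centred values from -0.29 to -0.26 in Mlesico and from 0.26 to 0.29 in Mle29c, so the signal was 1.45-fold higher on the gene value. Of the 155 genes with 6 measured probe sets, 16.1% had a narrower range. The lower pair, 1460326_at at 0.24 and 1440054_at at 0.06, sits below that group. The 6 are annotated to 3 GenBank records and are not independent readings. 1460326_at shares its record with 1423144_at, at 0.55 among the 4 highest, and the rest of those 4 share another. Pik3r1 (chromosome 13), which encodes the p85 alpha regulatory subunit and is a reported miR-29 target, had a median of -0.08. Its probe sets 1451737_at, 1425514_at and 1438682_at read 0.07, 0.05 and 0.03 in Mlesico and -0.07, -0.05 and -0.03 in Mle29c, and 1425515_at read -0.21 and 0.21. The ratios were -0.15, -0.10, -0.06 and 0.41, all within 2-fold and on both sides of 0. They come from 2 GenBank records, with 1425515_at on the same record as 1451737_at and 1425514_at. Only 1425514_at has a class from the sum, and the other classes come from the step. Pik3ca exceeded Pik3r1 by 0.62 in log2 ratio, and their probe set ranges overlapped.

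Genes next to the members on the chromosome were read as a local reference. For each member, the 10 measured genes on either side were taken from the order of the RefSeq gene table. Foxo1 stood 2.41 above its 20 neighbours, whose median was -0.21. Only Postn, which encodes periostin, was higher, at 2.39, and Mgst2, a glutathione transferase gene next to Foxo1, was at 1.35. Akt2 stood 1.28 above a neighbour median of -0.08, and Pik3ca 0.57 above one of -0.03, with 1 of 20 neighbours higher in each case. Akt1 was unlike them: all 20 neighbours were above 0, from 0.12 to 2.89, with a median of 0.72, and 6 were at least 2-fold higher. Akt1 lay below 15 of these 20, and stood at -0.28 relative to their median. The median of chromosome 12 as a whole was 0.06. For Foxo3, Foxo4, Pik3r1 and Sgk1 the neighbour medians lay between -0.20 and 0.05.

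**Figure D3:**
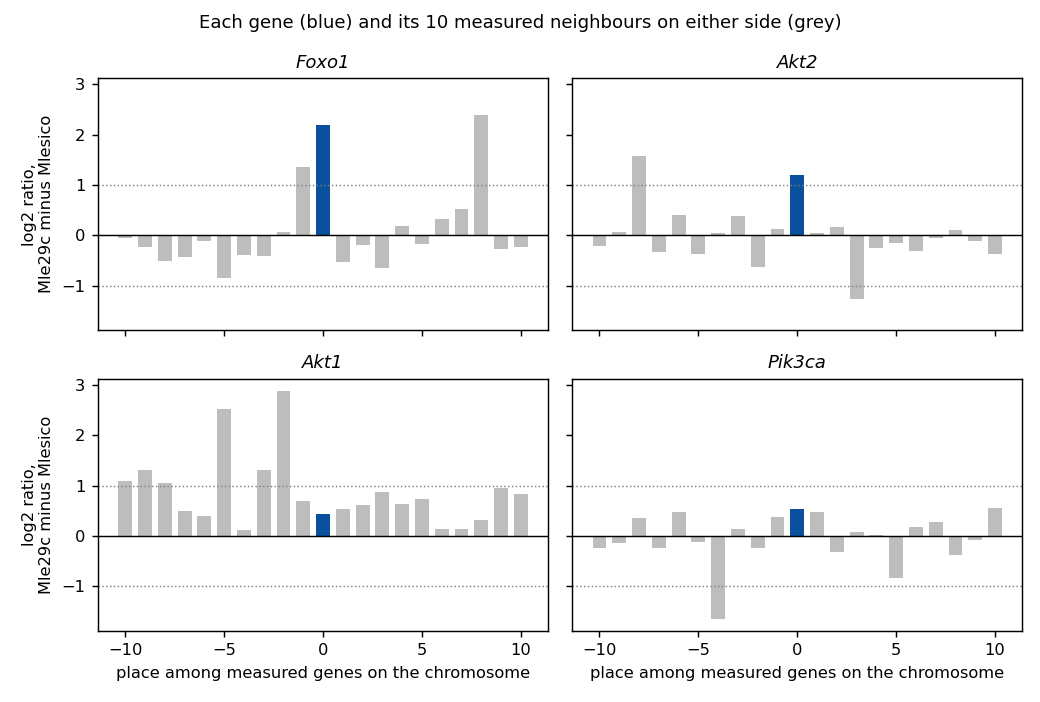
Log2 ratio (Mle29c minus Mlesico) of Foxo1, Akt2, Akt1 and Pik3ca in blue at place 0 and of their 10 measured neighbours on either side in grey, by place in gene order; dotted lines mark 2-fold. Foxo1 and Akt2 each lie above all but 1 of their 20 neighbours, whose medians are -0.21 and -0.08, while all 20 neighbours of Akt1 are above 0.

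The wider route was read through 9 lists of genes. Of 150 listed genes that are not members 133 were measured; 12 of them (9.02%) were at least 2-fold higher and 9 (6.77%) lower, close to the 8.46% and 7.26% of all measured genes. Their median was 0.10, and 60.2% were above 0, against 50.3% of all measured genes. No gene was past 2-fold among the kinases and mTOR complex genes, the phosphatases and other restraints, or the Akt substrates and mTORC1 effectors. The same held for proteins that modify or hold Foxo factors. Most of the genes past 2-fold were ligands, receptors and adaptors or Foxo targets. Under other settings the restraints had 1 gene higher (high class alone), the effectors 2 (classed by the sum) and the kinase list 1 (every probe set kept).

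**Figure D4:**
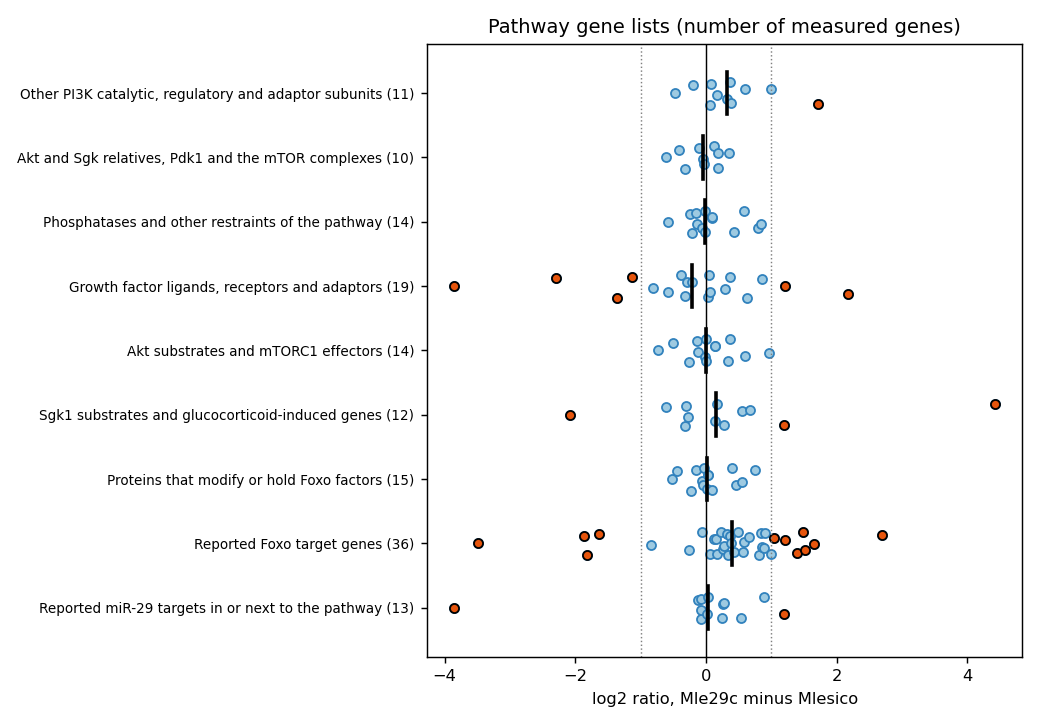
Log2 ratio (Mle29c minus Mlesico) of each measured gene in the 9 lists, with genes past 2-fold in orange, the others in blue, the list median as a black bar and dotted lines at 2-fold. Foxo targets have a median of 0.41 and other PI3K subunits one of 0.32. With every probe set kept these are 0.39 and 0.47, which turns their order, and over probe sets classed by the sum 0.34 and 0.06. The kinases and mTOR complex genes, the phosphatases and other restraints, the Akt substrates and mTORC1 effectors and the Foxo partners all lie inside the dotted lines.

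Growth factor ligands, receptors and adaptors included 19 measured genes, with a median of -0.22. At least 2-fold higher were 2 (10.5%, against 8.46% of all measured genes) and lower 4 (21.1%, against 7.26%). Igf1, the ligand of the Igf1 receptor and a reported miR-29 target, stood at -3.86, with its 3 measured probe sets from -5.43 to -2.57, all in the middle class. Igf2, the second ligand, was at -1.13. The receptor genes were near 0: Igf1r stood at 0.03 over 5 probe sets and Insr, the insulin receptor gene, at 0.06 over 3. The receptor tyrosine kinase gene Met was at -2.29 in 1 probe set and Grb10, an adaptor that restrains insulin and Igf1 receptors, at -1.35 with probe sets from -2.05 to -0.37. Fgfr2, a receptor of the lung epithelium, was at 2.17, but its 3 probe sets reached from 0.05 to 2.89. The docking protein genes Irs1, Irs2 and Irs4 stood at -0.82, 0.85 and 1.22, each from 1 measured probe set.

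Other PI3K subunits had a median of 0.32, with none of 11 measured genes 2-fold lower and 1 higher (9.09%, against 8.46% of all measured genes). That gene was Pik3r5, a regulatory subunit of the form driven by G protein-coupled receptors, at 1.71 in 1 probe set with a class from the step. Over probe sets classed by their sum, the median of these subunits was 0.06 and no gene was 2-fold higher. Pik3c3, the class III enzyme of autophagy, was at 0.99. The catalytic paralogs of Pik3ca were near 0, with Pik3cb at 0.18 and Pik3cd at -0.19, and the lowest was Pik3c2a at -0.48 in 3 probe sets. Among 10 measured kinases and mTOR complex genes, all within 2-fold, Pdpk1, which encodes the kinase that activates Akt and Sgk1, stood at 0.18, Mtor at -0.32, Rptor at -0.62 and Rictor at 0.13. Rictor had 5 probe sets from -3.18 to 0.72, a wide spread around that median. All 14 measured genes listed as phosphatases or other restraints lay within 2-fold as well, from Inpp5d, a lipid phosphatase gene, at -0.58 to Trib1 at 0.84. Trib1 and Trib2 encode pseudokinases, and whether they restrain the route in these cells was not tested. Trib2 was at 0.80 with probe sets at 0.06 and 1.54. Of 14 measured Akt substrates and mTORC1 effectors, Ulk1, an autophagy kinase gene, was highest at 0.96 and Mdm2 lowest at -0.73, while Gsk3b stood at -0.12 over 6 probe sets and Rps6 at 0.01.

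Sgk1 substrates and glucocorticoid-induced genes included 12 measured genes, with a median of 0.15. At least 2-fold higher were 2 (16.7%, against 8.46% of all measured genes) and lower 1 (8.33%, against 7.26%). Ndrg1, a direct substrate of Sgk1 that hypoxia also induces, stood at 4.43 with 5 probe sets from 4.27 to 4.63, and its relative Ndrg2 at 1.20. Scnn1g, the gamma subunit gene of the epithelial sodium channel, was at -2.07 from 1 middle-class probe set, whereas Scnn1a and Scnn1b were at 0.68 and -0.28. The glucocorticoid-induced genes Tsc22d3, Fkbp5 and Per1 stood at 0.27, 0.55 and -0.32, and Nr3c1, the receptor gene, at 0.13. The 15 measured proteins that modify or hold Foxo factors were all within 2-fold, from Crebbp, an acetyltransferase gene, at -0.52 to the 14-3-3 gene Ywhah at 0.75. The deacetylase gene Sirt1 stood at -0.15.

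Of the 36 measured genes reported as Foxo targets, 29 (80.6%) were above 0, against 50.3% of all measured genes. At least 2-fold higher were 7 (19.4%, against 8.46%) and lower 4 (11.1%, against 7.26%), and the median was 0.41, against 0.01. The list is a mixture, and Foxo factors repress some members, such as the cyclin D genes. By role, a grouping made after the values were seen, the 9 measured genes of the cell cycle were above 0 (50.3% of all measured genes were), with 4 at least 2-fold higher (8.46% of all) and a median of 0.90. Since they were grouped with the values known, nothing is read from that count. Btg1, an antiproliferative gene, stood at 1.66 with 3 probe sets from 1.10 to 1.67, the repressor gene Bcl6 at 1.49 and the cyclin G2 gene Ccng2, a marker of Foxo activity in arrested cells, at 1.04. The kinase inhibitor gene Cdkn1b, the textbook Foxo target of arrest, was at 0.84 with probe sets at 0.60 and 1.09. The repressed targets Ccnd1 and Ccnd2 were higher too, at 1.22 with 3 probe sets from 1.06 to 1.56, and at 0.90 with 7 from 0.76 to 1.11.

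In the same grouping by role, 3 of the 5 measured apoptosis genes were above 0, against 50.3% of all measured genes. At least 2-fold lower were 2, against 7.26% of all, and nothing is read from these counts either. The BH3-only genes Bcl2l11 and Bbc3 were at 0.26 and 0.27 and Fasl, a death ligand gene, at 0.90, while the death ligand gene Tnfsf10 was at -1.63, with probe sets from -1.95 to -0.28, and Trp53inp1 at -1.87, with probe sets at -3.04 and -0.69. Among genes of stress defence, Sesn3, a sestrin that limits mTORC1, stood at 1.52 with probe sets at 1.51 and 1.53. Catalase (Cat) was at 0.56 and Sod2 at -0.06. Selenop, which encodes a selenium carrier, was lowest at -3.49 from 1 middle-class probe set. In metabolism and autophagy, Glul, the glutamine synthetase gene, was the highest of the list at 2.70 with probe sets at 2.61 and 2.80, and the mitophagy gene Bnip3 was at 1.39. Pdk4, a kinase gene that restrains pyruvate oxidation, was at -1.82 from 1 probe set. Under the alternatives the list median was between 0.32 and 0.39, and the count of lower genes fell to 2 over high-class probe sets.

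Promoters of these targets were searched because several targets differed in the same direction. The motif was GTAAACA, the core that Foxo and other forkhead factors bind, on both strands, in windows from 250 bases before to 50 after each start site (RefSeq, GRCm38.p6). It occurred in 7 of 32 Foxo targets with a listed promoter (21.9%), against 4.05% of all 27025 genes. The list was drawn from genes known as Foxo targets, so such a share is not a finding of these arrays. Of the 7 members with a listed promoter, Akt1 alone held the motif (14.3%, against 4.05% of all genes). Windows are shown for 5 of the measured targets that hold it and for Akt1, with the motif in capitals as it reads on the gene's strand.
Btg1: gggggtttattTGTTTACaagcagattac
Txnip: ttggaggcctgGTAAACAagggccaagta
Bbc3: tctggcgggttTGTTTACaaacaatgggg
Bcl2l11: aagacactaggGTAAACAcgccggggtgg
Selenop: cagagggcgagGTAAACAacagggctata
Akt1: atctaccctctTGTTTACactcctggtga
They lie, in this order, at chr10:96616786-96616814, chr3:96557825-96557853, chr7:16310083-16310111 and chr2:128125800-128125828 on the plus strand, chr15:3270942-3270970 on the plus strand, and chr12:112675028-112675056 on the minus strand. The 6 measured targets with the motif, Sesn1 being the other, had a median of 0.32, and the 23 without had 0.56. The targets Btg1, at 1.66, and Selenop, at -3.49, both hold it. The related insulin response motif CAAAACA, which ends in the same letters and was found in none of those 7 targets, occurred in 4 of the 32 (12.5%), against 7.20% of all genes, and Ccng2 and Irs2 were the measured ones, at 1.04 and 0.85. None of the 7 members with a listed promoter held it. Matches are descriptions of these windows and not binding sites.

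Of the 13 measured genes reported as miR-29 targets in or next to the route, 2 were past 2-fold, 1 of them higher (7.69%) and 1 lower (7.69%), close to the 8.46% and 7.26% of all measured genes. The median was 0.03, and those 2 genes were Igf1 at -3.86 and Akt2 at 1.19. Pik3r1 and Cdc42, both reported as targets whose loss raises p53, were at -0.08 and 0.01. The phosphatase gene Ppm1d was at -0.07, Mcl1, a survival gene of the Bcl2 family, at -0.12 over 6 probe sets, and Cdk6 at 0.03. Ccnd2 was at 0.90 in 7 probe sets that all lay above 0. Of the 3 members reported as targets, only the Foxo3 probe set 1450236_at was 2-fold lower in Mle29c, and no gene value was.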

How the data were processed

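The authors deposited 1 table with a column for each of the 2 arrays, on a log scale read here as log2. MAS5, which reduces the probes of a probe set to 1 signal, comes from the submitters' processing notes. Its version, the scaling and the log base are not given in the sources used here. With a natural log, every fold would be larger. In the deposited log2 values each pair sums to 0 within 1e-06, and each column has a median of 0. Of 45101 probe sets, 64 are controls, 34945 name 1 gene in the platform annotation of 2016, 932 several and 9160 none; 34741 of the 34945 were found by gene number in the GRCm38.p6 gene table, which gave current symbols, chromosomes and gene order. No per-sample column was left unused.

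Ratios, level classes, gene medians and counts were computed in Python 3.11.15 with pandas 2.3.3. Pairs under 0.001 in size (284 probe sets) carry too few digits for a class. The class rule was tested on simulated data, where it was right for 96.2% of probe sets whose pair did not sum to 0 and for 67.9% of those read from the rounding step. On the real arrays, 87.0% of 46 ribosomal protein probe sets classed from the sum were high, and 0 of 43 for olfactory and vomeronasal receptors. Among those read from the step, 83.3% of 54 and 17.1% of 35 were called high. Of these olfactory and vomeronasal probe sets, 65.1% were low from the sum and 48.6% from the step. The others passed as high or middle, so a measured gene is not thereby shown to be expressed. Among the probe sets that rest on the step are 2 of the 3 measured Foxo1 probe sets, the Foxo3 probe set 1450236_at and the Akt2 probe set 1421324_a_at. The number of arrays limits the precision. The members and lists were chosen with earlier results of these data known. Named are all members, listed paralogs, and in each list up to 4 genes past 2-fold each way, or else the highest and lowest; other listed genes were named after their values were seen.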

Additional observations from a re-analysis of the deposited data

How the results depend on the processing

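Foxo1 stayed past 2-fold under all 8 alternatives, from 2.11 to 2.41, and Foxo3, Pik3r1, Pik3ca and Sgk1 stayed within 2-fold. For Foxo1 this was largely set in advance. Its 3 measured probe sets share 1 GenBank record and lie from 2.11 to 2.25, so a choice among them could not change the call. The probe set of another record, at -0.41, enters only with every probe set kept, where it hardly moves the median. Akt2 was past 2-fold under 4 of 8 and fell to 0.28 on the probe set of the smallest ratio. Foxo4 was at 1.27 with every probe set kept, and Akt1 at -0.28 relative to its 20 neighbours. Over high-class probe sets alone, Foxo4 and Sgk1 have no value. Genes of the route that are not members numbered 28 higher and 14 lower at 1.5-fold, 3 and 4 at 4-fold, and 5 lower in the high class, against 12 and 9 at 2-fold. All genes numbered 1250 higher and 1073 lower, 2252 and 1980 with every probe set kept, 679 and 554 in the high class, 625 and 549 where only the sum gave a class, 2465 and 2261 at 1.5-fold, and 396 and 343 at 4-fold. Another threshold or fewer probe sets enters these counts by construction. Foxo targets had 14 higher at 1.5-fold, 1 higher and 1 lower at 4-fold, and 2 lower under either of the stricter classes. Of 171 counts and medians of single lists, 33 moved by more than 1.5-fold (counts) or 0.62 (medians), and 138 did not. Classing by the sum only, and the neighbours as a reference, were chosen after the data were seen. No paired analysis was possible because each line has 1 array. Weak signals limit Foxo4, Sgk1, the low-class Akt1 probe set and, among the listed genes, Igf1, Scnn1g and Selenop.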
